A study of Mus musculus with 18 samples.

Results

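The lysosomal glycosidases, sulfatases and lipid hydrolases are the acid enzymes that take apart glycogen, glycoprotein sugars, glycosaminoglycans and membrane lipids, described here together with the activator proteins they need and the factors that mature them and carry them to the lysosome. The 39 genes were taken by name, and each was to be reported if its normalized counts averaged 10 or more across the 18 libraries. All 39 were found among the 27179 genes listed and all 39 passed this limit, as did 14353 genes in total. The question was how the RNA levels of these genes differed between mesenchymal stem cells (MSCs, adherent stromal cells grown out of bone marrow) from young and old mice, and whether old MSCs changed after a week beside young ones.

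RNA was sequenced from 18 cultures of MSCs from C57BL6 mice, 6 libraries in each of 3 groups, and the study's methods describe the animals as male. Young MSCs came from mice 6 weeks of age and were grown alone. Old MSCs came from mice 18 to 24 months of age and were also grown alone. Rejuvenated old MSCs came from mice 18 to 24 months of age as well, and spent 7 days in the same well as young MSCs, across a membrane with pores of 0.4 µm that passes soluble factors and holds back cells. Cultures held 100000 cells per well, and all cells had been expanded at low passage. None of the libraries came from old MSCs kept across the membrane from other old MSCs, so the presence of a second cell layer and the age of its donors cannot be told apart. The labels call the libraries biological replicates, but nothing states how many animals stand behind a group. If libraries of a group share animals, the p values measure the spread between cultures only. Because age, donor animals and the history of each cell stock go together in the young and old groups, these cannot be told apart either.

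Reads assigned to genes numbered 22936251 to 25648769 per library in young, 24965971 to 29559194 in old and 26018046 to 29155223 in rejuvenated old MSCs. All values below are normalized counts, that is reads divided by the size factor the authors gave each library, so a value is close to the number of reads behind it. The lowest value of any gene of the set in any library was 367, for Sgsh in a young library, so none came near the limit of detection. Levels given with ± are means and SD of the 6 libraries of a group (n = 6). Fold changes are differences of group means of log2(normalized count + 1), tested with limma over all 14353 genes with 3 groups in one fit. A gene is called higher or lower where the Benjamini-Hochberg adjusted p is under 0.05.

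Lysosomal enzymes are made in the endoplasmic reticulum as inactive precursors and leave it with sugar chains attached. In the Golgi a phosphotransferase and an uncovering enzyme expose mannose 6-phosphate on those chains, and receptors for this tag carry the enzymes to endosomes and on to lysosomes. Sulfatases need a further step, the conversion of a cysteine in the active site to formylglycine. Loss of a single enzyme leaves its substrate to accumulate, which is the basis of the lysosomal storage diseases, and beta-galactosidase activity is widely stained for to find senescent cells.

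Apart from Thy1, the marker genes of MSCs were present in all groups but not in equal amounts. All 13 MSC markers had a mean of at least 10 in young MSCs and 12 of 13 in the others, and their summed level was 335844 to 362149 in young, 465974 to 492580 in old and 457389 to 490407 in rejuvenated old libraries. The higher sums of old and rejuvenated old libraries rest on Cxcl12, with means of 197374 and 238458 against 9227 in young MSCs. Of the 13 markers, 8 were lower and 5 were higher in young than in old MSCs. Set against old MSCs, rejuvenated old ones had 6 of them lower and 3 higher. Thy1 was absent or nearly so from old MSCs, with at most 3 reads in any library against 198 ± 23.1 normalized counts in young. Cd34, which the surface phenotype of MSCs lacks, had 7006 ± 156 normalized counts in young and 23.1 ± 3.31 in old MSCs. The 19 macrophage markers, which matter because macrophages are rich in lysosomes, summed to 1019 to 1120.2 in young, 18642 to 23127 in old and 18654 to 22627 in rejuvenated old libraries. In young MSCs 10 of the 19 had at most 3 reads in every library, among them the defining markers Ptprc and Adgre1, which had 0 reads. The most abundant one in old MSCs was Lyz2, at 10154 ± 958 normalized counts against 173 ± 14.4 in young and 9769 ± 1050.3 in rejuvenated old MSCs. Of the 18 macrophage markers tested, 17 were lower and 1 was higher in young than in old MSCs, while 1 was lower and 1 was higher in rejuvenated old than in old MSCs.

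Other cell types were checked in the same way. The 8 osteoblast markers summed to 4453 to 4699 in young, 114774 to 123558 in old and 66559.9 to 94509.5 in rejuvenated old libraries, with Spp1, which encodes osteopontin, as the most abundant in each group, and 2 of them (Bglap2 and Ibsp) at no more than 3 reads in every young library. For this list 5 genes were lower and 1 was higher in rejuvenated old than in old MSCs. The 7 adipocyte markers summed to 16838 to 19369.7, 43193 to 45589 and 47587 to 60629 in the same order, led by Lpl, with Adipoq, Plin1 and Cfd at no more than 3 reads in every young library. Of the 6 tested, 4 were higher and 1 was lower in rejuvenated old MSCs, set against old ones. The 8 osteoclast markers, whose cells also carry many lysosomes, summed to only 294 to 382, 114 to 139 and 87.5 to 139.7, with Dcstamp and Calcr at no more than 3 reads everywhere. The higher young sum rests on Mmp9, at 244 ± 31.6 normalized counts in young against 30.9 ± 7.61 in old MSCs. Tnfrsf11a went the other way, at 1.41 ± 1.45 in young and 31.6 ± 8.17 in old MSCs. The 8 endothelial markers summed to 6995 to 7345 in young libraries, nearly all of it Cd34, against 146 to 193 in old and 186 to 556 in rejuvenated old libraries. In these bulk libraries fewer cells of a type and less RNA per cell cannot be told apart, and the part of other cell types in the differences between young and old MSCs was not tested.

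Some libraries stood apart, or differed from their description. The methods name male mice, yet the Y-linked genes Ddx3y, Uty, Kdm5d and Eif2s3y together had 0 to 5 reads in the young libraries, against 5013 to 5584 in old and 5259 to 6339 in rejuvenated old libraries. Xist, the RNA that coats an inactive X chromosome, was low throughout, at 34.4 ± 8.30 normalized counts in young and 6.11 ± 4.58 in old MSCs. The young and old groups therefore also differ in Y-linked RNA, and whether this bears on Gla and Ids, which lie on the X chromosome, was not tested. Genes of whole chromosomes were shifted together in young MSCs, with a median log2 fold change against old MSCs of -0.69 on chromosome 1, -0.75 on 16, -0.46 on 12 and 0.61 on 7, where the median of all genes tested was -0.022. Smpd1 and Tpp1 lie on chromosome 7, Galc and Lgmn on 12 and Nagpa on 16, so fold changes less the chromosome median are given for young against old MSCs where it moves them most. Between rejuvenated old and old MSCs the chromosome medians carrying these genes were 0.059, 0.0052 and -0.010. Rejuvenated old replicate 1 had 402 normalized counts of Cd34 where replicates 2 to 6 had 24.2 to 41.9, and 21.6 of Thy1 where they had 0 to 0.951. Rejuvenated old replicate 5 had the lowest value of its group for 17 of the 39 genes and the largest median deviation from its group over all genes, 0.11 on the log2 scale. Without these 2 libraries, a choice made after seeing the data, rejuvenated old MSCs had 29 of the 39 genes lower and 2 higher than old MSCs, the same counts as with them, although Asah1 was no longer called and Gnptg became so. Young against rejuvenated old MSCs then had 20 lower and 13 higher, with Acp2, Manba and Man2b1 no longer called and Arsa called lower.

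**Figure D1:**
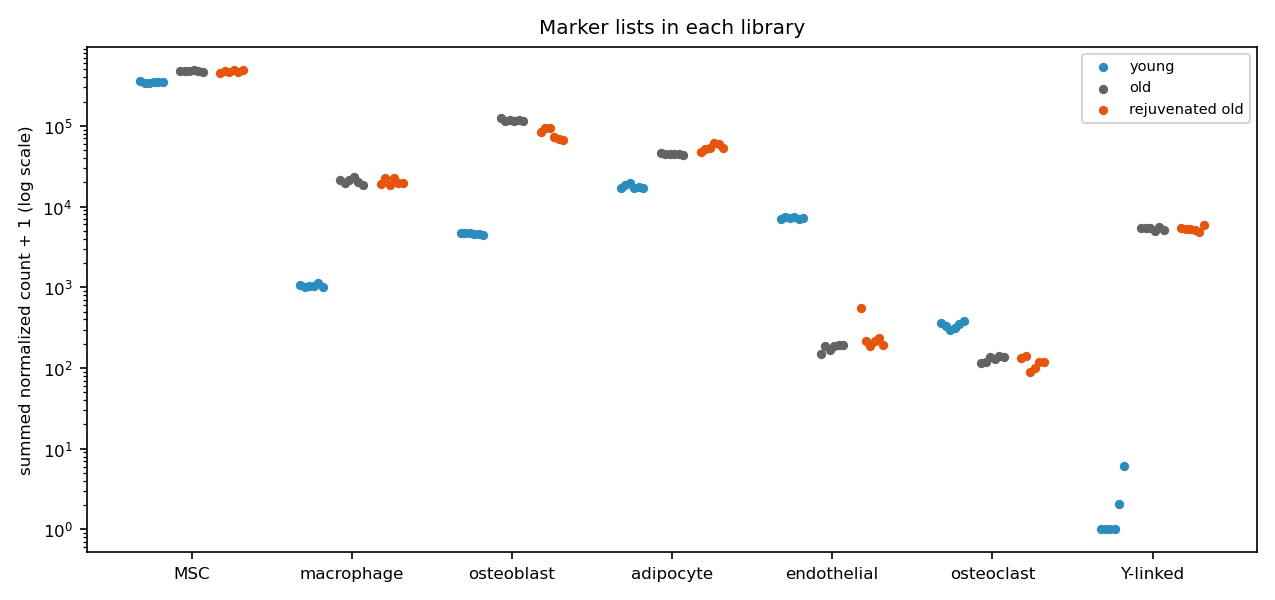
Summed normalized counts (plus 1, log axis) of the marker genes of 6 cell types and of 4 Y-linked genes, 1 point for each library, 6 libraries in each of the young, old and rejuvenated old groups. Macrophage, osteoblast and adipocyte markers were lower in young than in old libraries, Y-linked reads were at or near 0 in young libraries, and old and rejuvenated old libraries overlapped for macrophage markers.

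Promoters of the set are shown because transcription factors of the TFEB family, known regulators of lysosomal genes, bind E-boxes with the letters CACGTG, most often within the longer GTCACGTG. Windows from 250 bases before to 50 bases after the transcript start were taken from RefSeq on GRCm38.p6 (mm10), and 34 of the 39 genes had at least 1. Those not matched were Aga, Galns, Hgsnat, Asah1 and M6pr. CACGTG, which reads the same on both strands, occurred in 10 of the 34 matched genes and in 8.09% of all 27025 genes in the table, or 7.15% of all 32851 windows. The longer GTCACGTG, searched on both strands (CACGTGAC on the other) and always containing the shorter one, occurred in 9 of the 34 and in 2.55% of all genes in the table. The palindrome TCACGTGA, which also contains it, was found in 3 of the 34 and in 1.12% of all. The 10 genes were Arsa, Gaa, Gla, Glb1, Gnptg, Lgmn, Naglu, Nagpa, Sgsh and Sumf1. A match describes the letters and shows no binding, and a window without them says nothing of the factor. The windows of 5 genes that the results below turn on follow, 5′ to 3′ on the gene's own strand, with CACGTG in capitals. They cover a gene that was higher in rejuvenated old than in old MSCs (Naglu), genes that fell (Gaa, Sgsh and Sumf1), and 1 that fell in rejuvenated old but was higher in young MSCs (Gla). Counted from the transcript start, the letters begin 140 bases before it in Gaa, 73 in Naglu, 29 in Sgsh, 11 in Sumf1, and 227 and 194 in Gla.
Gaa (chr11:119267713-119268012, plus strand): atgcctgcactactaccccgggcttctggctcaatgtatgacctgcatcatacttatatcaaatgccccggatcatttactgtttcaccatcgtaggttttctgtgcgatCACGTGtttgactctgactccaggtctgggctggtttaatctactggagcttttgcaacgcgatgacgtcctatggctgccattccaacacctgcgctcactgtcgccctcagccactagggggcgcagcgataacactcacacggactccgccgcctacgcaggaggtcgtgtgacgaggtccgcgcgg
Naglu (chr11:101069844-101070143, plus strand): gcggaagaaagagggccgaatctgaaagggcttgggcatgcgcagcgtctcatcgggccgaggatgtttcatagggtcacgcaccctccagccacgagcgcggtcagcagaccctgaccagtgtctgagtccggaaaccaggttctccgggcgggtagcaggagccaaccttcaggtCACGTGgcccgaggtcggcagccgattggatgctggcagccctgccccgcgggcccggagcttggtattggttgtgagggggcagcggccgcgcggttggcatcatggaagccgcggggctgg
Sgsh (chr11:119355461-119355760, minus strand): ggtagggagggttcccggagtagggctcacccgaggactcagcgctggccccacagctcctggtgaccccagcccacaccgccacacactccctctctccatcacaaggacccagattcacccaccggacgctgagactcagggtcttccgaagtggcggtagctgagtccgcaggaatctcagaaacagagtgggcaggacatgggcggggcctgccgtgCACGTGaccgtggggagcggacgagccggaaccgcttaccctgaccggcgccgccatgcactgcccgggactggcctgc
Sumf1 (chr6:108185534-108185833, minus strand): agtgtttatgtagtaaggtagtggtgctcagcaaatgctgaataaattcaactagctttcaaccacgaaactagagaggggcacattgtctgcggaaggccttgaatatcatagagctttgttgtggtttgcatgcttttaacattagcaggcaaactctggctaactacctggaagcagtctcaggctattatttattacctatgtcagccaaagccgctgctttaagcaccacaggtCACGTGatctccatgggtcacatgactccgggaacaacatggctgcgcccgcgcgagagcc
Gla (chrX:134600956-134601255, minus strand): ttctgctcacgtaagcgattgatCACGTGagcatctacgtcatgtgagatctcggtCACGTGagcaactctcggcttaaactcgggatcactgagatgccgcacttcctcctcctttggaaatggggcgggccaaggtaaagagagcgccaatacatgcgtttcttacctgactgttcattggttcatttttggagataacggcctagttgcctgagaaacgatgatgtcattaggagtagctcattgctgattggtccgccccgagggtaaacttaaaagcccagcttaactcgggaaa

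Most of these genes had less RNA in rejuvenated old than in old MSCs. Of the 39, 29 were lower (74.4%), 2 were higher (5.13%) and 8 were not called, while of all 14353 genes tested 20.6% were lower and 21.0% were higher. Their median log2 fold change was -0.20 (from -0.21 to -0.19 under the other scalings below) against 0.0081 over all genes tested, and values ran from -0.67 (Man2b1) to 0.28 (Naglu). For 22 genes every rejuvenated old library lay below every old library, a separation that 11.6% of all genes tested showed in that direction. The counts were 30 lower and 2 higher with all libraries scaled to the same total, and 28 and 2 with the same 75th percentile, with medians over all genes of -0.0074 and 0.013.

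Young MSCs differed from old MSCs by larger steps and in both directions. Here 28 of the 39 genes were lower (71.8%), 7 were higher (17.9%) and 4 were not called, where of all genes tested 44.1% were lower and 41.6% were higher. The median log2 fold change was -0.31 against -0.022 over all genes tested, and the median size regardless of sign was 0.58 against 0.60. All young libraries lay below all old libraries for 24 of the 39 genes, which 38.2% of all genes tested did. Scaled to the same total, 23 genes were lower and 9 higher with a median of -0.23 against 0.053 over all genes, and scaled to the same 75th percentile, 24 and 7 with -0.27 against 0.018. These scalings add the same 0.074 and 0.040 to the fold change of each gene of the set and nearly the same to all others, so the distance of the set from all genes was kept. The comparisons of rejuvenated old and of young MSCs use the same 6 old libraries, so their values are set side by side for each gene and not counted together.

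Young against rejuvenated old MSCs gave a more even split. This comparison holds differences left after co-culture together with genes that were below the young level in rejuvenated old MSCs only. Gaa, Manba, Hgsnat, Lgmn and Psap were called lower in young than in old MSCs, but higher in young than in rejuvenated old MSCs. Galns, Hexa and Tpp1 were not called in the former comparison and were higher in the latter. Of the 39 genes, 20 (51.3%) had less RNA and 15 (38.5%) had more in young MSCs, against 44.1% lower and 41.5% higher among all genes tested, so these shares were close to the background. The median log2 fold change was -0.065, beside -0.025 over all genes. Scaling to the same total gave 0.025 for the set beside 0.065 over all genes. As it moves genes nearly alike, it cannot show whether the set differs from them.

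**Figure D2:**
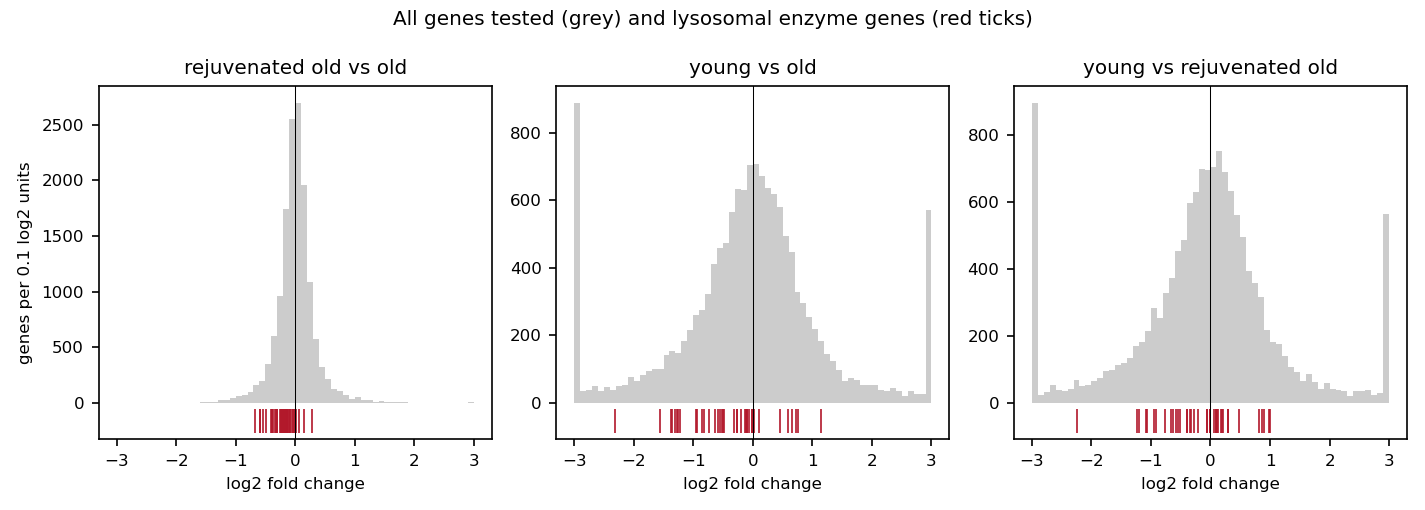
Log2 fold changes of all 14353 genes tested (grey, genes per 0.1 log2 units, the end bars holding everything beyond 3) and of the 39 lysosomal enzyme genes (red ticks) in the 3 comparisons. In rejuvenated old against old MSCs most ticks lie left of 0, where the median of all genes is 0.0081, while in the comparisons of young MSCs the ticks spread to both sides.

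The set as a whole took a smaller share of all normalized counts in rejuvenated old and in young libraries than in old ones. Its 39 genes made up 0.737 to 0.769% of the counts of an old library, 0.603 to 0.637% of a rejuvenated old library and 0.645 to 0.680% of a young library, and the old libraries overlapped neither of the other groups. Psap was the gene of the set with the most counts. Without it, the summed normalized counts were 135901 ± 2708 in old, 117765 ± 2818 in rejuvenated old and 108160 ± 1274 in young MSCs.

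Per kilobase of exon, the scale on which genes can be compared with each other, Psap stood far above the rest, with 23924 normalized counts per kilobase in old MSCs. Aga, Hexa, Gaa and Scpep1 came next at 4618, 3677, 3603 and 3335. At the other end were Galc, Sgsh and Fuca2, at 164, 191 and 224. In young MSCs Scpep1 was second to Psap, at 5533, followed by Hexa at 3730.3 and Gaa at 2908, and Fuca2 was lowest at 86.5. In old MSCs the coefficients of variation of Aga, Hexa and Gaa were 4.06%, 4.28% and 4.01%. This spread between libraries does not measure error in the exon lengths, and the annotation used for counting is not given. Differences between genes per kilobase were not tested. Within groups the spread was small: the coefficient of variation ran from 1.46 to 11.0% in young, 1.39 to 9.79% in old and 1.42 to 13.2% in rejuvenated old MSCs, where Arsb had the highest.

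**Figure D3:**
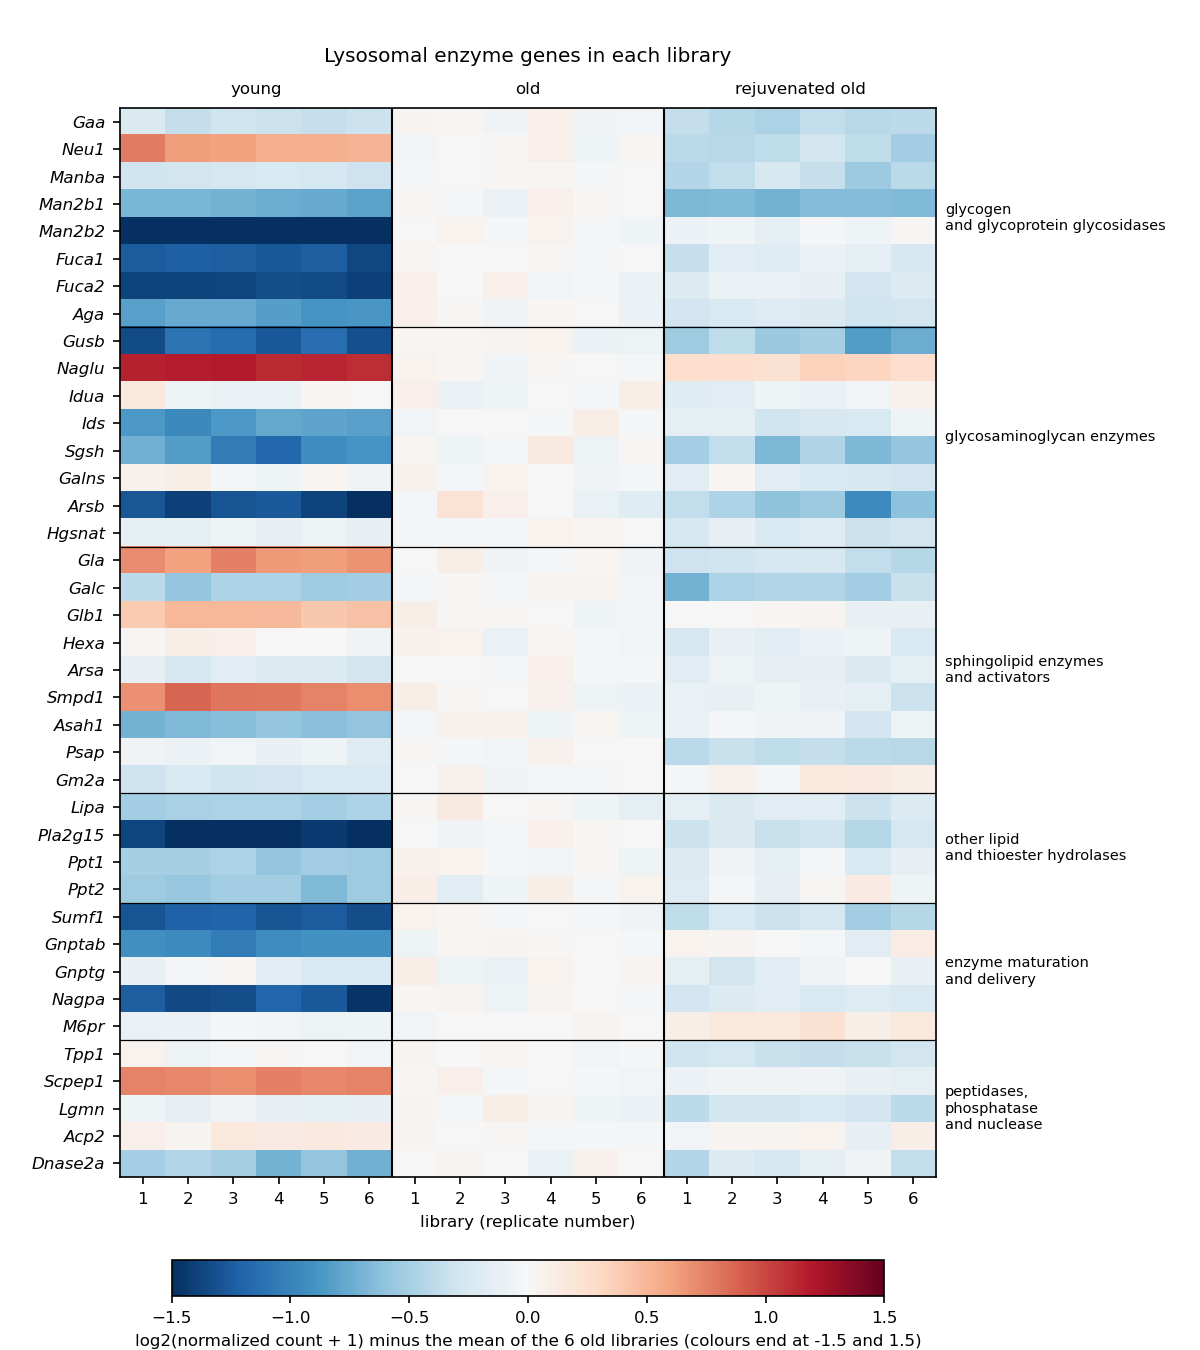
Each of the 39 genes (down the side, by class) in each of the 18 libraries, as log2(normalized count + 1) less the mean of the 6 old libraries. The rejuvenated old libraries are mostly pale blue, with Naglu and M6pr red, and the young libraries hold strong blues (Man2b2, Pla2g15) beside reds (Naglu, Smpd1).

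By median fold change, the glycosidases of glycogen and glycoproteins were the class that fell the most in co-culture, a ranking that was not tested. Values in the class ran from -0.67 to -0.060, and the ranges of the classes overlapped. Of the 8, 7 were lower and 1 was not called in rejuvenated old against old MSCs, with a median log2 fold change of -0.32. In young against old MSCs 7 were lower and 1 was higher, with a median of -0.78. Over all genes tested, 20.6% were lower and 21.0% higher in the former comparison, and 44.1% and 41.6% in the latter. Man2b1 (chr8:85082730-85098739), the main lysosomal alpha-mannosidase, had 4592 to 5146 normalized counts in old libraries (median 4903), 2995 to 3108 in rejuvenated old (median 3090.4) and 2799 to 3044 in young (median 2943). All old libraries lay above all others, and the young and rejuvenated old libraries overlapped. In rejuvenated old MSCs it fell by 37.1% (log2 fold change -0.67, SE 0.029, adjusted p = 5.45e-14), the largest fall of the set, and in young MSCs it fell by 39.7% (log2 fold change -0.73, SE 0.029, adjusted p = 1.16e-16). Young against rejuvenated old MSCs the difference was -0.063 with an adjusted p of 0.0493, a call that 13 of 18 limma fits, each without a different library, did not make (adjusted p up to 0.135). The same total, which adds 0.090 to all genes in this comparison, gave 0.028, and less the chromosome median the value was -0.22. The call was also lost with edgeR, DESeq2, the same 75th percentile, the replicate block, no filter, a pseudocount of 10, a fit of 2 groups, and without rejuvenated old replicates 1 and 5.

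Man2b2 (chr5:36806813-36830649), a related alpha-mannosidase, differed mainly between young MSCs and both other groups. It had 6673 to 7267 normalized counts in old (median 6955) and 6354 to 7054 in rejuvenated old libraries (median 6660.0), which overlapped, but 1303 to 1469.8 in young ones (median 1423), far below both. Its fold change was -0.060 in rejuvenated old (SE 0.033, adjusted p = 0.155) and -2.31 in young against old MSCs (SE 0.033, adjusted p = 7.16e-25). The latter was the largest difference of any gene in the set.

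Gaa (chr11:119267963-119285458), the acid alpha-glucosidase that degrades glycogen and is deficient in Pompe disease, had 14072 to 15444 normalized counts in old (median 14623), 10561 to 11481 in rejuvenated old (median 11069.7) and 11467 to 12598 in young libraries (median 11732). Old libraries lay above both other groups, which overlapped at the lower edge of the young range. It fell by 24.4% in rejuvenated old (log2 fold change -0.40, SE 0.031, adjusted p = 9.17e-10) and fell by 19.3% in young MSCs (log2 fold change -0.31, SE 0.031, adjusted p = 4.14e-09). Its promoter, shown above, carries CACGTG once, without the flanking letters of the longer form.

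Among the other glycosidases, Neu1, the sialidase that removes terminal sialic acid, moved in opposite directions: it had 1419 ± 48.9 normalized counts in old, 1078 ± 59.4 in rejuvenated old and 2151 ± 154 in young MSCs. Relative to old MSCs its fold change was -0.40 in rejuvenated old and 0.60 in young MSCs (adjusted p = 2.45e-07 and 1.57e-11), and less the chromosome median the young value was 0.38. Manba, the beta-mannosidase that follows in glycan breakdown, fell by 23.6% in rejuvenated old and fell by 17.1% in young MSCs, from 1084 ± 17.0 in old MSCs. Aga, which splits the bond between a glycan and its asparagine, fell by 15.8% in rejuvenated old and fell by 43.4% in young MSCs, from 5454 ± 222. The fucosidases fell by about the median of the set in co-culture, and differed more between young and old MSCs. Fuca1, the lysosomal enzyme, had 6264 ± 86.8 in old MSCs with fold changes of -0.20 in rejuvenated old and -1.26 in young MSCs, and Fuca2, its secreted relative, had 1287 ± 59.2 with -0.17 and -1.37. All these changes had an adjusted p of at most 0.00142 in limma.

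The 8 glycosaminoglycan enzymes, which trim heparan, dermatan, keratan and chondroitin sulfate from the end of the chain, held both the 3 largest falls after Man2b1 (Arsb, Gusb and Sgsh) and the largest rise. In rejuvenated old against old MSCs 6 were lower, 1 was higher and 1 was not called (median -0.21), beside 20.6% of all genes lower. In young against old MSCs 5 were lower, 1 was higher and 2 were not called (median -0.48), where of all genes tested 44.1% were lower and 41.6% were higher. Arsb (chr13:93771679-93943016), the arylsulfatase that removes sulfate from dermatan and chondroitin sulfate, had 2673 to 3528 normalized counts in old (median 3009), 1554 to 2339 in rejuvenated old (median 2027) and 1075 to 1263 in young libraries (median 1194). The groups did not overlap, and rejuvenated old libraries lay between old and young ones, with replicate 5 lowest. It fell by 33.7% in rejuvenated old (log2 fold change -0.59, SE 0.075, adjusted p = 1.53e-06) and fell by 60.8% in young MSCs (log2 fold change -1.35, SE 0.075, adjusted p = 7.50e-14). Exons of Arsb share 48.2% of their bases with Gm26527, a long noncoding RNA on the other strand, and since the strand setting of the counting is not given, reads of the pair cannot be told apart.

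Naglu (chr11:101070090-101077672), the alpha-N-acetylglucosaminidase of heparan sulfate, was the exception of its class. It had 1449.9 to 1561 normalized counts in old (median 1504), 1760.1 to 1908 in rejuvenated old (median 1795) and 3234 to 3428 in young libraries (median 3345). The groups did not overlap, and the order was old, rejuvenated old, young. In rejuvenated old MSCs Naglu rose by 21.1% (log2 fold change 0.28, SE 0.029, adjusted p = 8.35e-08), and in young MSCs it was higher by 122% (log2 fold change 1.15, SE 0.029, adjusted p = 1.72e-20). Chromosome 11, where it lies, was not shifted between young and old MSCs, and less the chromosome median the latter value was 1.15. Naglu acts on heparan sulfate together with Sgsh, the sulfamidase, and both promoters shown carry CACGTG, but Sgsh went the other way: it fell by 31.4% in rejuvenated old and fell by 47.6% in young MSCs, from 833 ± 44.2 normalized counts in old MSCs (limma, adjusted p = 1.04e-06 and 8.87e-12). For Sgsh, 21.9% of exon bases are shared with Card14 on the other strand.

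Gusb, the beta-glucuronidase long used as a model lysosomal enzyme, had 3198 ± 136 normalized counts in old, 2132 ± 248 in rejuvenated old and 1374 ± 96.3 in young MSCs. Its fold changes were -0.59 (SE 0.062, adjusted p = 8.40e-08) in rejuvenated old and -1.22 (SE 0.062, adjusted p = 1.14e-14) in young against old MSCs, without overlap of the old libraries with either group. Ids, the X-linked iduronate sulfatase, had fold changes of -0.19 in rejuvenated old and -0.85 in young MSCs, from 3276 ± 115 in old MSCs. Hgsnat, the membrane acetyltransferase that prepares heparan sulfate for Naglu, fell by 14.9% in rejuvenated old and fell by 7.40% in young MSCs, from 2602 ± 66.8, and with the same total the young value was not called (-0.036). Its young fold change was -0.11, or -0.26 less the chromosome median. Galns, a sulfatase of keratan and chondroitin sulfate, fell by 11.6% in rejuvenated old MSCs, from 1174 ± 38.4, and had 1181 ± 52.6 in young MSCs, which was not called (fold change 0.0073, adjusted p = 0.882, and -0.14 less the chromosome median). Idua, the alpha-iduronidase, was called in none of the 3 comparisons with the authors' scaling, with 914 ± 45.5 in old, 864 ± 53.2 in rejuvenated old and 906 ± 66.2 in young MSCs. Its smallest adjusted p was 0.209, with a fold change of -0.081 in rejuvenated old against old MSCs.

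Taken by reaction and not by substrate, the 5 sulfatases of the set (Ids, Sgsh, Galns, Arsb and Arsa) fell in co-culture, with a median log2 fold change of -0.19. In young against old MSCs 4 were lower, 1 (Galns) was not called and the median was -0.85. Of sulfatases outside the set, Arsg (-0.017, adjusted p = 0.854) and Arsk (0.016, adjusted p = 0.875) were not called in rejuvenated old against old MSCs. In young against old MSCs both were lower (-1.66, adjusted p = 4.10e-17, and -0.47, adjusted p = 7.46e-07). The grouping by reaction was made after the values were seen.

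**Figure D4:**
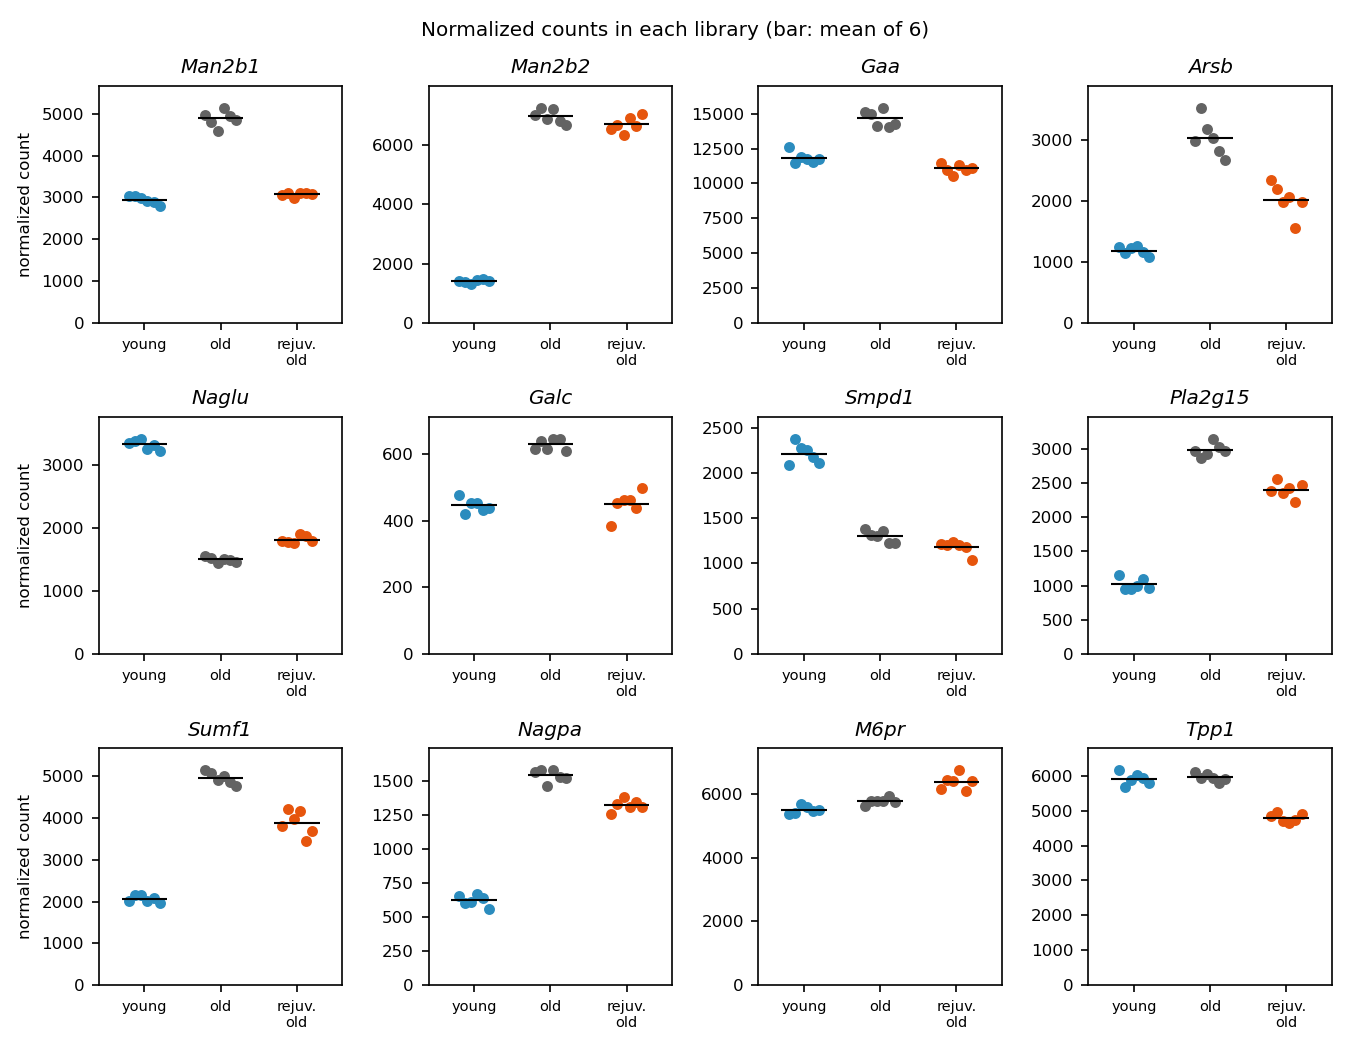
Normalized counts of 12 genes in every library (points) of the young, old and rejuvenated old groups, with the mean of the 6 libraries as a bar and axes that start at 0. Old libraries lie above both other groups for Man2b1, Gaa, Galc, Arsb, Pla2g15, Sumf1 and Nagpa, and below them for Naglu.

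The 9 genes that degrade sphingolipids, or present these lipids to the enzymes, mostly fell in co-culture. In rejuvenated old against old MSCs 7 were lower and 2 were not called (median -0.14), beside 20.6% of all genes lower. In young against old MSCs 5 were lower, 3 were higher and 1 was not called, beside 44.1% of all genes lower and 41.6% higher. The median there was -0.090, or -0.016 with all libraries scaled to the same total. Galc (chr12:98202287-98259459), the galactosylceramidase lacking in Krabbe disease, had 611 to 647 normalized counts in old (median 628), 383 to 498 in rejuvenated old (median 458) and 421 to 478 in young libraries (median 446). Old libraries lay above all others, and young libraries fell inside the rejuvenated old range. It fell by 28.7% in rejuvenated old (log2 fold change -0.49, SE 0.053, adjusted p = 1.41e-07) and fell by 29.1% in young MSCs (log2 fold change -0.50, SE 0.053, adjusted p = 8.36e-09). Chromosome 12 was lower in young MSCs as a whole, and less its median the young value was -0.038. The value for rejuvenated old MSCs less the chromosome median was -0.49.

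Smpd1 (chr7:105554360-105558389), the acid sphingomyelinase, had 1222 to 1379 normalized counts in old (median 1309.9), 1042 to 1243 in rejuvenated old (median 1206) and 2092 to 2379.7 in young libraries (median 2213). Old and rejuvenated old libraries overlapped, and all young libraries lay above both. It was higher in young MSCs (log2 fold change 0.77, SE 0.044, adjusted p = 1.39e-13) and lower in rejuvenated old MSCs (log2 fold change -0.14, SE 0.044, adjusted p = 0.0154). Chromosome 7 was higher in young MSCs, and less its median the young value came to 0.16.

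Gla, the X-linked alpha-galactosidase deficient in Fabry disease, had 1226 to 1349.9 normalized counts in old, 941 to 1075 in rejuvenated old and 1925 to 2142 in young libraries, with no overlap among the groups. Against old MSCs its fold change was -0.32 in rejuvenated old (adjusted p = 5.63e-07) and 0.67 in young MSCs (adjusted p = 9.78e-14), so rejuvenated old MSCs were farther from young MSCs than old ones were. Less the chromosome median, the young value was 0.51. Glb1, the beta-galactosidase whose activity serves as a stain for senescence, was not called in rejuvenated old against old MSCs, at 2109.9 ± 102 and 2145 ± 80.3 (limma, adjusted p = 0.621), and was higher in young MSCs, at 2940.4 ± 101. Its young fold change was 0.46, or 0.26 less the chromosome median.

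Psap, the precursor of the saposins that lift sphingolipids out of membranes for their enzymes, was the most abundant gene of the set, with 63567 to 68405 normalized counts in old, 49055 to 52252 in rejuvenated old and 57334 to 63915 in young libraries. All rejuvenated old libraries lay below all others, while young and old libraries overlapped. It fell by 23.3% in rejuvenated old MSCs (fold change -0.38, SE 0.034, adjusted p = 6.22e-09). In young MSCs the fold change was -0.090 (adjusted p = 0.0164), a call that was lost without young replicate 6 (fold change -0.069, adjusted p = 0.0552) and with either other scaling, and whose sign turned less the chromosome median (0.10). Gm2a, the activator that presents gangliosides to beta-hexosaminidase, was not called in rejuvenated old MSCs (0.069, adjusted p = 0.111) and was lower in young MSCs (-0.26, adjusted p = 2.22e-07), from 2959 ± 80.5 in old MSCs. Without rejuvenated old replicate 1, Gm2a was called higher in rejuvenated old MSCs (fold change 0.089, adjusted p = 0.0358).

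Hexa, the alpha subunit of beta-hexosaminidase, fell by 9.89% in rejuvenated old MSCs, from 7339 ± 314, and was not called in young MSCs, at 7446 ± 263 (fold change 0.021, adjusted p = 0.593). With the same total, which adds 0.074 to all genes, the young value of Hexa was 0.096 and called higher (adjusted p = 0.0118), and less the chromosome median it was -0.18. Arsa, the sulfatase of sulfatide, fell by 9.27% in rejuvenated old and fell by 13.3% in young MSCs, from 4163 ± 119.6 (young fold change -0.21, or -0.40 less the chromosome median). Arsa shares 19.8% of its exon bases with C230037L18Rik, and Acp2, described below, 13.3% with Ddb2. Asah1, the acid ceramidase, was lower in young MSCs, at 4776 ± 145 against 7425 ± 305, while in rejuvenated old MSCs its call rested on the edge of the threshold. The latter fold change was -0.096 (limma, adjusted p = 0.0488), and 12 of 18 fits, each without a different library, did not make the call, with an adjusted p up to 0.132 and a fold change of -0.059 without rejuvenated old replicate 5. The same 75th percentile, no filter, a fit of 2 groups, the replicate block and leaving out rejuvenated old replicates 1 and 5 together ended the call too.

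The 4 remaining lipid and thioester hydrolases were all lower in young MSCs (median -0.54). In rejuvenated old MSCs 3 were lower and 1 was not called (median -0.17). The shares of all genes tested that were lower than in old MSCs were 44.1% in young and 20.6% in rejuvenated old MSCs. Pla2g15 (chr8:106150354-106164718), a lysosomal phospholipase, had 2863 to 3149.5 normalized counts in old (median 2966), 2216 to 2563 in rejuvenated old (median 2405) and 945 to 1148 in young libraries (median 981). No library of one group lay in the range of another, and rejuvenated old libraries took the middle place. It fell by 19.4% in rejuvenated old (log2 fold change -0.31, SE 0.046, adjusted p = 1.07e-05) and fell by 65.9% in young MSCs (log2 fold change -1.55, SE 0.046, adjusted p = 4.18e-19). Lipa, the acid lipase that frees cholesterol from its esters, fell by 13.3% in rejuvenated old and fell by 28.6% in young MSCs, from 3881 ± 247 in old MSCs. Ppt1, the thioesterase that takes palmitate off proteins, fell by 8.65% in rejuvenated old and fell by 30.1% in young MSCs, from 4573 ± 174. Ppt2, a related thioesterase, was not called in rejuvenated old MSCs (-0.043, limma, adjusted p = 0.533) and fell by 31.9% in young MSCs, from 1345 ± 90.4. Of its exon bases, 43.1% are shared with the overlapping transcript Gm20460 on the same strand, so its level is uncertain.

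The 5 factors that mature and deliver the enzymes were all lower in young than in old MSCs (median -0.95), although for M6pr and Gnptg the difference was small. Among all genes tested, 44.1% were lower there. In rejuvenated old against old MSCs 2 of the 5 were lower, 1 was higher and 2 were not called (median -0.12). The shares of all genes in that comparison were 20.6% lower and 21.0% higher. Sumf1 (chr6:108107021-108185591), which makes the formylglycine that every sulfatase needs, had 4774 to 5163 normalized counts in old (median 4958), 3448 to 4225 in rejuvenated old (median 3900.0) and 1967 to 2151 in young libraries (median 2053). The groups were separate, with rejuvenated old libraries between the others. It fell by 21.9% in rejuvenated old (log2 fold change -0.36, SE 0.041, adjusted p = 3.78e-07) and fell by 58.4% in young MSCs (log2 fold change -1.27, SE 0.041, adjusted p = 2.56e-18).

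The mannose 6-phosphate tag is laid by the phosphotransferase whose alpha and beta subunits come from Gnptab and whose gamma subunit comes from Gnptg, and it is uncovered by Nagpa. Gnptab had 1942 ± 123 normalized counts in rejuvenated old and 1937 ± 61.2 in old MSCs, a fold change of 0.0013 (limma, adjusted p = 0.983), and fell by 48.2% in young MSCs. Gnptg was not called in rejuvenated old MSCs (-0.12, adjusted p = 0.0620), but was called lower without old replicate 2 or 3 or rejuvenated old replicate 5 (adjusted p as low as 0.0270), with the same total (-0.14), with DESeq2 (-0.13) and without rejuvenated old replicates 1 and 5 together (-0.15). Against 1128 ± 63.2 in old MSCs it was lower in young MSCs (fold change -0.12, adjusted p = 0.0298), a call lost in 6 of 18 fits without a library (adjusted p up to 0.0784), with the replicate block, with the same total (-0.050) and with the same 75th percentile (-0.085). Less the chromosome median the young value of Gnptg was -0.35, and 49.5% of its exon bases are shared with Unkl on the other strand. Nagpa (chr16:5195280-5204032) had 1465 to 1583 normalized counts in old (median 1546), 1257 to 1381 in rejuvenated old (median 1321) and 557 to 672 in young libraries (median 626), with no overlap between groups. It fell by 14.1% in rejuvenated old (log2 fold change -0.22, SE 0.041, adjusted p = 0.000166) and fell by 59.6% in young MSCs (log2 fold change -1.31, SE 0.041, adjusted p = 1.35e-18). As chromosome 16 was lower in young MSCs as a whole, the young value less the chromosome median was -0.56.

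M6pr (chr6:122308720-122317680), the cation-dependent receptor for the tag, was with Naglu 1 of the 2 genes of the set that rose in co-culture. Igf2r, the other receptor for the tag and not part of the set, fell from 5039 ± 196 in old to 3213 ± 419 in rejuvenated old MSCs (fold change -0.66, adjusted p = 2.71e-08), and was higher in young MSCs (0.34, adjusted p = 3.25e-05). M6pr had 5614 to 5933 normalized counts in old (median 5780.0), 6112 to 6772 in rejuvenated old (median 6425) and 5380.2 to 5686 in young libraries (median 5493). All rejuvenated old libraries lay above all others, while old and young libraries overlapped. The rise was 10.6% (log2 fold change 0.15, SE 0.027, adjusted p = 0.000153). In young MSCs the fold change was -0.067 (adjusted p = 0.0248), and this call was lost without young replicate 1 or old replicate 5 (adjusted p up to 0.0589) and with scaling to the same 75th percentile (-0.027) or the same total (0.0072, after the 0.074 added to all genes). The young value was -0.15 less the chromosome median.

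The peptidases, phosphatase and nuclease that complete the set digest proteins, phosphate esters and DNA in the lysosome. In rejuvenated old against old MSCs 4 of the 5 were lower and 1 was not called (median -0.24), beside 20.6% of all genes lower. In young against old MSCs 2 were lower, 2 were higher and 1 was not called (median -0.012, and 0.063 with all libraries scaled to the same total). Of all genes tested, 44.1% were lower and 41.6% were higher in young than in old MSCs, so these shares were close to the background. Tpp1 (chr7:105744811-105752282), the tripeptidyl peptidase deficient in a late infantile form of Batten disease, had 5800.3 to 6117 normalized counts in old (median 5929), 4636 to 4947 in rejuvenated old (median 4779) and 5671 to 6178 in young libraries (median 5903). Rejuvenated old libraries lay below all others, and the young and old ones overlapped. It fell by 19.5% in rejuvenated old MSCs (log2 fold change -0.31, SE 0.026, adjusted p = 3.10e-09) and was not called in young MSCs (log2 fold change -0.012, SE 0.026, adjusted p = 0.675), though with the same total it was called higher there (0.063, adjusted p = 0.0381). Less the median of chromosome 7, which was raised in young MSCs, the young value was -0.62.

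Scpep1 (chr11:88924020-88955442), a serine carboxypeptidase, had 6803 to 7348 normalized counts in old (median 6950.3), 6295 to 6751 in rejuvenated old (median 6648) and 11356 to 11789 in young libraries (median 11626). The young libraries lay far above both other groups, and the rejuvenated old ones just below the old ones, without overlap. It was higher by 65.9% in young MSCs (log2 fold change 0.73, SE 0.026, adjusted p = 1.60e-17) and fell by 5.69% in rejuvenated old MSCs (log2 fold change -0.084, SE 0.026, adjusted p = 0.0123). Lgmn, the asparaginyl endopeptidase that also activates cathepsins, fell by 19.2% in rejuvenated old MSCs, from 5637 ± 264 in old MSCs (limma, adjusted p = 2.96e-07). In young MSCs its fold change was -0.10 (adjusted p = 0.00911), which turned to 0.35 less the median of chromosome 12 and was not called with the same total (-0.029) or 75th percentile (-0.063). Dnase2a, the acid DNase, fell by 15.5% in rejuvenated old and fell by 33.1% in young MSCs, from 932 ± 36.0, with overlap of old and rejuvenated old libraries. Acp2, the lysosomal acid phosphatase, was not called in rejuvenated old MSCs (0.013, adjusted p = 0.794) and was slightly higher in young MSCs (0.11, adjusted p = 0.00431, and 0.21 less the chromosome median), against 2447 ± 42.7 in old MSCs.

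Arsb, Fuca2 and Gnptab, on chromosomes with negative medians, kept their direction in young against old MSCs. For Ppt2 on chromosome 17 (median 0.22) and the genes on chromosome 8, subtracting a positive median from a negative value could not change the sign. Less the chromosome median the values were -1.05 for Arsb, -1.18 for Fuca2, -0.75 for Gnptab and -0.78 for Ppt2, from -1.35, -1.37, -0.95 and -0.56. On chromosome 8, whose median was 0.15, they were -0.88 for Man2b1, -0.97 for Aga, -0.79 for Asah1, -1.70 for Pla2g15 and -0.73 for Dnase2a.

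**Figure D5:**
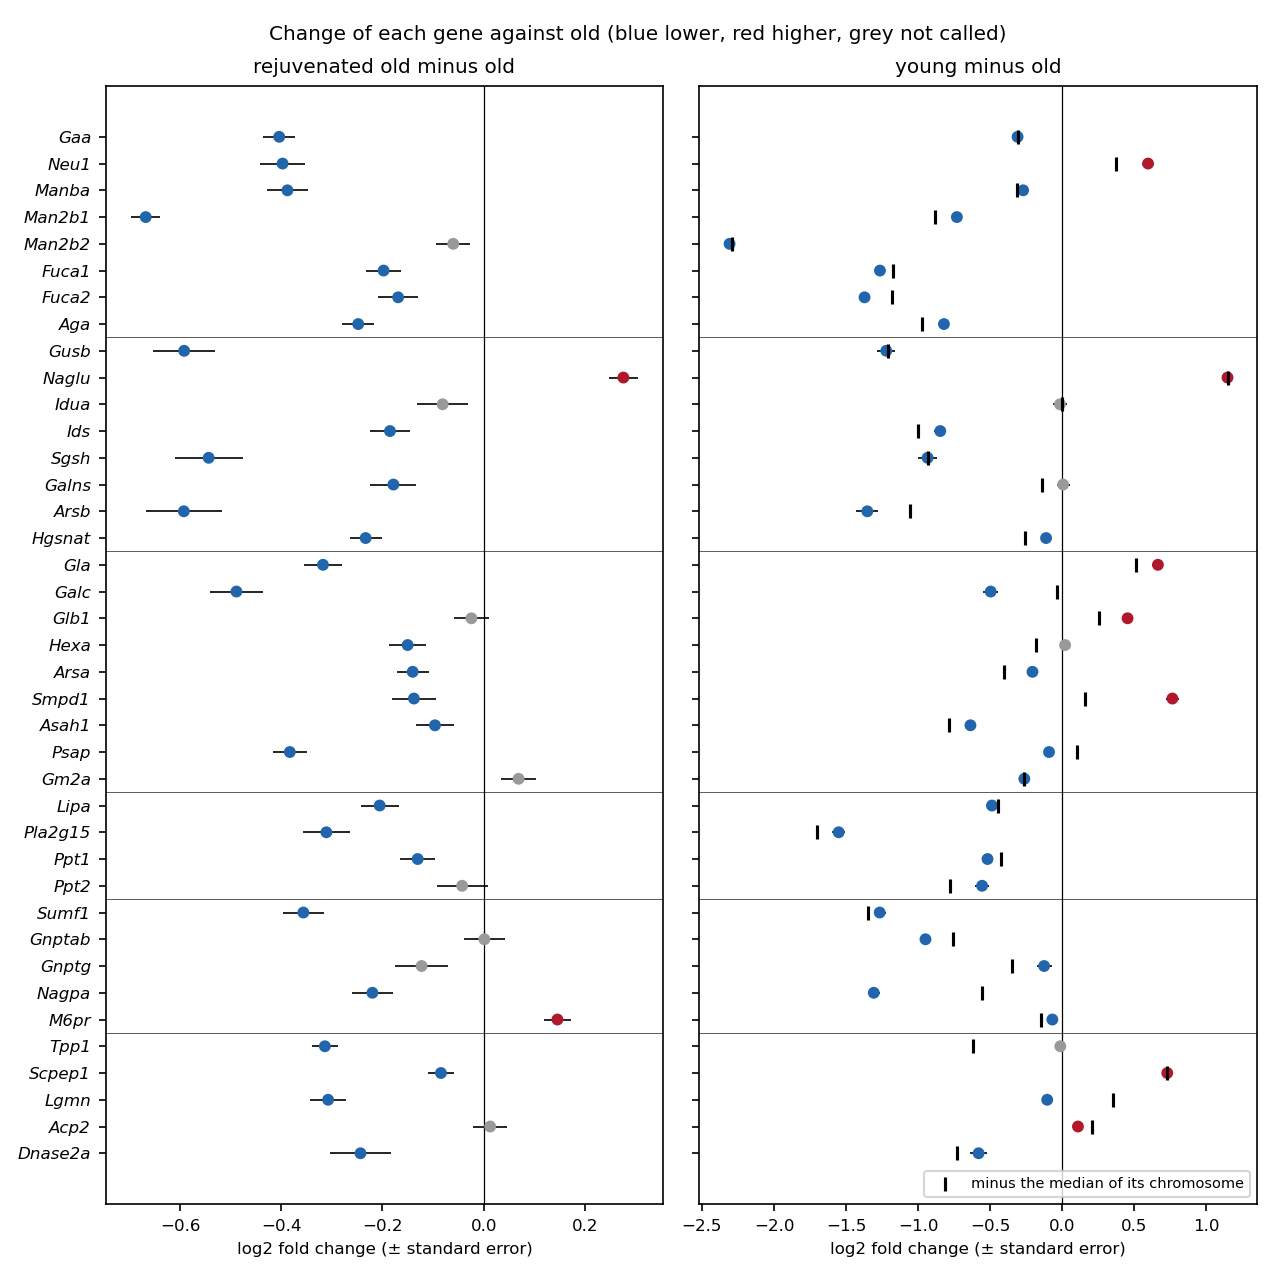
Log2 fold change (points, with standard errors as bars) of the 39 genes, by class, in rejuvenated old against old (left) and young against old MSCs (right), which share the old libraries and have different axis ranges. Blue points are called lower, red points higher and grey points not called, and the upright ticks on the right give the value less the median of the gene's chromosome, which moves Nagpa, Smpd1, Tpp1, Galc and Lgmn most.

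Set directly against young MSCs, rejuvenated old MSCs differed most in Man2b2 (-2.25 in young minus rejuvenated old), Pla2g15 (-1.24), Fuca2 (-1.20), Nagpa (-1.09) and Fuca1 (-1.07), all lower in young MSCs. Neu1 (0.99), Gla (0.98), Smpd1 (0.90), Naglu (0.87) and Scpep1 (0.82) were the farthest in the other direction. Less the chromosome median, Nagpa came to -0.32 and Smpd1 to 0.34. All 10 had an adjusted p of at most 6.36e-15 in limma and no overlap of libraries. The 4 genes not called between young and rejuvenated old MSCs were Arsa, Galc, Gnptg and Idua. Their fold changes were -0.065, -0.0069, -0.0018 and 0.067 (adjusted p = 0.0604, 0.904, 0.974 and 0.213), with standard errors of 0.032 to 0.053. With all libraries scaled to the same total, again a shift of all genes, Idua was called higher in young MSCs (0.16, adjusted p = 0.00755), and less the chromosome median Galc was 0.45, Arsa -0.28 and Gnptg -0.20. For Arsa the missing call depended on single libraries, as it was called lower in young MSCs without young replicate 1 or 3 or rejuvenated old replicate 5 (fold change as low as -0.082, adjusted p as low as 0.0197).

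Other genes of the lysosome were summarised by class, from lists that hold none of the 39. Of 84 genes tested, 47 were lower and 7 were higher in rejuvenated old MSCs against old ones (median -0.15, against 20.6% lower and 21.0% higher over all genes tested), and 50 were lower and 27 higher in young than in old MSCs (median -0.23). Among 20 lysosomal membrane proteins, 13 were lower and 1 was higher in rejuvenated old MSCs, with fold changes of -0.44 for Lamp1 and -0.18 for Cd63, the most abundant of them. Of the 16 subunits of the V-ATPase, the proton pump that keeps lysosomes acid, 12 were lower and none higher, among them Atp6ap1 (-0.27, adjusted p = 1.19e-07) and Atp6v0d1 (-0.44, adjusted p = 8.36e-09). The 11 cathepsins, lysosomal proteases, split into 3 lower, 3 higher and 5 not called, with the abundant Ctsb at -0.59 and Ctsd at -0.49. Receptors and adaptors that sort enzymes were lower in 9 of 15 cases and higher in none, with Ap3d1 at -0.21 and Vps35 at -0.21. Further soluble lysosomal and related enzymes were lower in 6 and higher in 3 of 16, with Plbd2 at -0.32 and Pld3 at -0.22.

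The same classes in young against old MSCs gave 11 lower and 8 higher membrane proteins, 11 lower and 4 higher V-ATPase subunits, 9 lower and 2 higher cathepsins, 9 lower and 5 higher sorting factors, and 9 lower and 4 higher further enzymes, where of all genes tested 44.1% were lower and 41.6% were higher. Ctsb was higher in young MSCs (0.37, limma, adjusted p = 1.75e-09) and lower in rejuvenated old MSCs. Neu1, Gla, Smpd1 and Scpep1 of the set showed this pattern too, as did others outside it, among them Lamp2 and Igf2r. Of the 6 genes of the TFEB family and its regulators, 4 were lower and none higher in rejuvenated old MSCs. In young MSCs 1 was lower and 4 were higher. Against old MSCs, 20.6% of all genes tested were lower in rejuvenated old and 41.6% were higher in young MSCs. Tfe3, a transcription factor of this family, and Flcn, which holds the family in the cytoplasm, were the most abundant, with fold changes in rejuvenated old MSCs of -0.12 (adjusted p = 0.00102) and -0.38 (adjusted p = 1.69e-08). Tfeb itself, named after its values were seen, had 317 ± 27.7 in old and 293 ± 18.7 in rejuvenated old MSCs and was not called (-0.11, adjusted p = 0.215).

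Of the 10 genes whose promoter window holds CACGTG, Arsa, Gaa, Gla, Lgmn, Nagpa, Sgsh and Sumf1 fell in co-culture, Naglu was higher and Glb1 and Gnptg were not called. Among the 24 matched genes without the letters, 18 were lower, none was higher and 6 were not called. Of all genes tested, 20.6% were lower and 21.0% were higher in rejuvenated old than in old MSCs.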

How the data were processed

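RNA from 18 MSC cultures was sequenced. The deposited values are a signal for each gene and library: according to the paper, the authors aligned reads to mm10 with HISAT2, used StringTie and featureCounts for counting and DESeq2 for normalization, on Galaxy. Versions, annotation and strand setting are not given. Each value is reads divided by a size factor of its library, and the reads behind 100% of values came out whole to within 0.01 of a read. Libraries held 22936251 to 29559194 reads, and genes that never exceeded 3 reads in a group counted as undetected there.

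Log2(value + 1) was fitted with limma 3.58.1 (trended prior, 3 groups in one fit) in R 4.3.3, for 14353 genes with a mean of at least 10, with Benjamini-Hochberg adjustment. The code was tested on simulated data. Tables and figures used Python 3.11.15, numpy 2.4.6, pandas 2.3.3 and matplotlib 3.10.9. Positions came from RefSeq on GRCm38.p6, which matched 25275 of 27179 genes, and exon lengths from GENCODE vM21. The genes and the marker lists were chosen with earlier results of these data known. Full values are given for Gaa, for genes called higher in rejuvenated old MSCs and for the called gene of each class with the largest fold change in each comparison with old MSCs. The other genes have level and change. Of other lysosome genes, those with the highest means are named per class, and further genes were picked with their values in view.

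Alternatives were pseudocounts of 0.5 and 10, no filter and a mean of at least 50, scaling to the same total or 75th percentile, edgeR 4.0.16 and DESeq2 1.42.0 on recovered reads, fits of 2 groups, a replicate block, leaving out each library, and fold changes less the chromosome median. Leaving out rejuvenated old replicates 1 and 5 together was added after seeing the data. Other assays of the study were not analysed here.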

Additional observations from a re-analysis of the deposited data

Results flagged for a closer look

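Of 117 groups of 6 libraries (39 genes in 3 groups), 7 held a library whose gap to the nearest other took up so much of the group's range that chance alone gives it in about 1 in 20 groups. None of the 7 was tested further.

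Fuca1 was 2437 in young replicate 6, below the 2583 to 2671 of the other young libraries. Ids was 3495 in old replicate 5, above the other old libraries (3189 to 3294). For Galns, rejuvenated old replicate 2 had 1197, over the range of the rest (960.3 to 1043). Arsa stood at 4400.2 in old replicate 4, over 4069 to 4149 in the rest of that group. Smpd1 was low in rejuvenated old replicate 6, at 1042 where the rest had 1185 to 1243. Rejuvenated old replicate 5 was low for Asah1, with 6105 against 6946 to 7279.6. Ppt2 was 851 in young replicate 5, under the 908 to 933 of the remaining young libraries.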

How the results depend on the processing

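Over all alternatives with a test, which leaves out values less the chromosome median, 28 to 30 of the 39 genes were lower and 2 to 3 higher in rejuvenated old against old MSCs, 23 to 28 lower and 7 to 9 higher in young against old, and 19 to 21 lower and 13 to 16 higher in young against rejuvenated old MSCs. Over all genes, the calls numbered 5310 to 6345, 10630 to 14283 and 10617 to 14175. In both comparisons of young MSCs the ends of the range come from different numbers of genes tested. The lowest had 12203 genes with a mean of at least 50, and the highest 21697 genes without a filter. Except for values less the chromosome median, only small fold changes changed sign. Sign changes under the same total or 75th percentile come from adding nearly the same amount to every gene, -0.016, 0.074 and 0.090 with the same total in the 3 comparisons and 0.040 and 0.034 with the 75th percentile in those of young MSCs. For the others the cause was not tested.

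In rejuvenated old against old MSCs, Gnptab turned to -0.014 with the same total and -0.0016 with DESeq2, and Acp2 to -0.0030 with the same total. Leaving out single libraries, Gnptab ran from -0.020 to 0.035 and Acp2 from -0.0041 to 0.040.

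In young against old MSCs, the same total gave 0.060 for Idua, 0.0072 for M6pr and 0.063 for Tpp1, and the same 75th percentile 0.026 for Idua and 0.028 for Tpp1. Less the chromosome median, Psap was 0.10 and Lgmn 0.35. Without single libraries, Idua ran from -0.049 to 0.0041 and Galns from -0.0082 to 0.022.

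In young against rejuvenated old MSCs, the same total gave 0.083 for Galc, 0.025 for Arsa, 0.088 for Gnptg and 0.028 for Man2b1, and the same 75th percentile 0.027 for Galc and 0.033 for Gnptg. Gnptg was 0.0053 with edgeR, 0.014 with DESeq2 and 0.026 without rejuvenated old replicates 1 and 5, and Galc was 0.0032 with DESeq2. Less the chromosome median, Hgsnat was -0.031, Hexa -0.0060 and Tpp1 -0.26. Without single libraries, Galc ran from -0.052 to 0.023 and Gnptg from -0.032 to 0.024.

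With the replicate number as a block, 28 genes were lower and 2 higher in rejuvenated old against old MSCs, 27 and 7 in young against old, and 19 and 15 in young against rejuvenated old MSCs. Nothing states that equal numbers belong together. The 18 correlations between libraries of the same number, over deviations from their group means, ran from -0.152 to 0.0736, and 0 libraries correlated best with their own number. Genes of the set were well above the floor in every library, so depth limited only the markers near 0.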
